A study of Mus musculus with 16 samples.

Results

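The matrix metalloproteinase (Mmp), Adamts and Timp genes form a family of secreted and membrane-bound proteases and their inhibitors. They were taken by symbol from the GENCODE M21 annotation (GRCm38) as the autosomal protein-coding genes named Mmp, Adamts or Timp followed by a number. This gave 44 genes of 20807, namely 22 Mmp, 19 Adamts and 3 Timp genes, which were examined for RNA polymerase II (Pol II) and for histone H2B monoubiquitylation (H2Bub1) by ChIP-seq. Cells were wild type (WT, Atxn7l3+/+) or knockout (KO, Atxn7l3-/-), on a DBA/2 x C57BL/6 background, and came from crosses of heterozygous mice. Both genotypes were represented by mouse embryonic stem cells (mESCs), grown with LIF and kinase inhibitors and freed of feeder cells before use, and by fibroblasts of mouse embryos (MEFs), taken at E10.5 without head and gut, a primary culture that can hold several cell types. Chromatin was precipitated with an antibody to RPB1, the largest Pol II subunit, or to H2Bub1, and N-ethylmaleimide in the buffers inhibited deubiquitylating enzymes. Each of the 8 groups held 1 library, so that no difference can be set against the spread between replicates, and p-values are not given.

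Matrix metalloproteinases are zinc-dependent endopeptidases that cut collagens, gelatin, proteoglycans and cell surface proteins. The ADAMTS proteases are secreted, carry thrombospondin repeats and act on proteoglycans, on procollagens and on the fibrillin network. TIMP proteins bind the active site of these enzymes and inhibit them, and fibroblasts are a main source of all 3 kinds of protein in connective tissue. H2Bub1 is placed on transcribed gene bodies by the ligase RNF20/RNF40 and removed by deubiquitylases such as USP22, which need the adaptor ATXN7L3.

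The Pol II lists held between 11963 and 45870 peaks and the H2Bub1 lists between 19725 and 48952. In MEFs the Pol II list was shorter in KO (32232 peaks against 45870 in WT), whereas H2Bub1 peaks covered 223.0 Mb in KO and 48.1 Mb in WT. In mESCs H2Bub1 covered 151.1 Mb in KO and 71.6 Mb in WT. The read depth is unknown, and depth, peak calling and genotype cannot be told apart in these lists. The promoter of Atxn7l3 itself had a Pol II peak in every Pol II library (fold 3.61 and 3.71 in WT and KO mESCs, 20.9 and 23.4 in WT and KO MEFs), which lies outside the part between loxP sites, exons 2 to 12 per the study's methods. Over that part (chr11:102291898-102295059, from the annotation) H2Bub1 peaks covered 100% in WT and 13% in KO mESCs, while in MEFs they covered 21.6% in WT and 19.6% in KO, so that only the mESC pair differed there by much. Pol II peaks covered 20.7% and 11.9% of it in WT and KO mESCs, with 19.3% and 10.9% in MEFs. Peaks were thus not absent from this part in the libraries labelled KO, and whether they are edges of flanking peaks was not checked. The peak lists alone do not settle the genotype. The study itself reports that ATXN7L3 protein could not be detected in KO mESCs and MEFs, and that global H2Bub1 was raised in both. The pluripotency genes Pou5f1, Sox2 and Nanog carried promoter Pol II in WT and KO mESCs and not in MEFs, while a further marker of this kind, Tfcp2l1, also had a peak of fold 7.08 in KO MEFs and Esrrb had none. All 6 fibroblast markers (Col1a1, Col1a2, Thy1, Twist2, Pdgfra and Pdgfrb) had such peaks in WT and KO MEFs but not in mESCs.

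Promoter sequences were available for 28 of the 44 genes within 1000 bp of the transcription start site (TSS) of the gene record (RefSeq, GRCm38.p6). They are shown for 3 genes with Pol II at the promoter. Adamts1 had the highest promoter fold of the family, Mmp14 is the membrane-type enzyme with the highest promoter fold, and Adamts17 had a promoter peak in WT MEFs only. Each run gives the 250 bases before the RefSeq TSS, from 5′ to 3′ on the strand of the gene, and capitals mark matches on either strand to TATAAA (the TATA box), TGANTCA (the letters bound by AP-1 factors, which read the same on both strands) or GGGCGG (the GC box).
Adamts1 (chr16:85803114-85803363, minus strand): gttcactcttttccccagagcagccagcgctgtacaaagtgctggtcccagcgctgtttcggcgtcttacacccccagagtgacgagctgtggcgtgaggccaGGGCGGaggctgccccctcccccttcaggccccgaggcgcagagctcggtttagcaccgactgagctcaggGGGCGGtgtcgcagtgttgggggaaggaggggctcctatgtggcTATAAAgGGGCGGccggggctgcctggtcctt
Mmp14 (chr14:54431348-54431597, plus strand): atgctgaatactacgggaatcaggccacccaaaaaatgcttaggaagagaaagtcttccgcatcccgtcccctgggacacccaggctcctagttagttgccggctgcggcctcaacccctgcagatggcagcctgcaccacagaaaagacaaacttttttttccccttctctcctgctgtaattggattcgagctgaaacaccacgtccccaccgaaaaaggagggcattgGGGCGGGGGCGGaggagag
Adamts17 (chr7:66839485-66839734, plus strand): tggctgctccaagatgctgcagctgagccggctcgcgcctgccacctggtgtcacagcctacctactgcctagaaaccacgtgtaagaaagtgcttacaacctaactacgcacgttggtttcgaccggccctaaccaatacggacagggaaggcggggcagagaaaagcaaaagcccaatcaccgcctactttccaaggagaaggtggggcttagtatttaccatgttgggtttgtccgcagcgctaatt

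Adamts1 carried TATAAA 32 bases before its start and GGGCGG 147, 76 and 25 bases before it. Mmp14 held 2 adjoining GC boxes, and Adamts17 held none of the searched letters. Of the 13 genes with an available sequence and a Pol II promoter peak in at least 1 library, 10 had GGGCGG, 1 had TATAAA and 0 had TGANTCA, and their median number of CG dinucleotides was 15. Of the 15 genes with a sequence and no promoter peak, 3 had GGGCGG, 7 had TATAAA and 6 had TGANTCA, and their median number of CG dinucleotides was 1. Among these 15, 9 are neighbouring Mmp genes of 1 run on chromosome 9. That run holds all 6 promoters with TGANTCA, 6 of the 7 with TATAAA and none of those with GGGCGG. Over all 15687 autosomal promoters of the same length, 45% held GGGCGG, 12% TATAAA and 6.13% TGANTCA, with a median of 11 CG dinucleotides.

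A run of 9 neighbouring Mmp genes on chromosome 9 had no Pol II at the promoter in any library. Their last 100 bases before the TSS are shown for 4 of the 6 promoters in this run that held both TATAAA and TGANTCA. These 4 were chosen after the values were seen, and their starts are the same in RefSeq and in the gene record.
Mmp13 (chr9:7272414-7272513, plus strand): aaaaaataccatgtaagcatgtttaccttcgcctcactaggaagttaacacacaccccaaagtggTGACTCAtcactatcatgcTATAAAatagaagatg
Mmp3 (chr9:7445722-7445821, plus strand): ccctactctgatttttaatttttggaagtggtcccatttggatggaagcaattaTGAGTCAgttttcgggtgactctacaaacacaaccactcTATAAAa
Mmp20 (chr9:7628131-7628230, plus strand): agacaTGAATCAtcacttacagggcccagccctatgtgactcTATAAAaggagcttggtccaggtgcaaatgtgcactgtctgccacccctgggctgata
Mmp7 (chr9:7691990-7692089, plus strand): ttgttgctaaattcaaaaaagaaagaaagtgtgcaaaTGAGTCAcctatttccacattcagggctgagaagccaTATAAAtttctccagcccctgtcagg

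Both sets of letters occurred together in 1.27% of all 15687 promoters and in 6 of the 28 promoters of the family, all 6 of them in the chromosome 9 run (Mmp1b, Mmp3, Mmp7, Mmp10, Mmp13 and Mmp20). TGANTCA lay 63 bases before the start in Mmp7 and Mmp10, 35 in Mmp13, 46 in Mmp3, 93 in Mmp1b and 95 in Mmp20. These matches describe the letters in the window and were not tested as binding sites.

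To see where the protease and inhibitor genes carried Pol II, a promoter was taken as 1000 bp on either side of the TSS. More members had promoter Pol II in MEFs than in mESCs, as was the case for all genes, and in MEFs the share of the family was close to that of all genes. WT mESCs had a promoter peak at 9 of the 44 genes (20.5%, exact 95% interval 9.8 to 35.3), where 35.3% of all 20807 genes had one. KO mESCs had 7 of 44 (15.9%), against 32.1% of all genes. WT MEFs had 23 of 44 (52.3%, interval 36.7 to 67.5) against 55.3%, and KO MEFs had 20 of 44 (45.5%) against 52.3%. The intervals cover counting error within 1 library only. In WT cells 15 members had the peak in MEFs but not in mESCs (background 21.9%), and Adamts8 alone had it in mESCs but not in MEFs (background 1.9%).

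**Figure D1:**
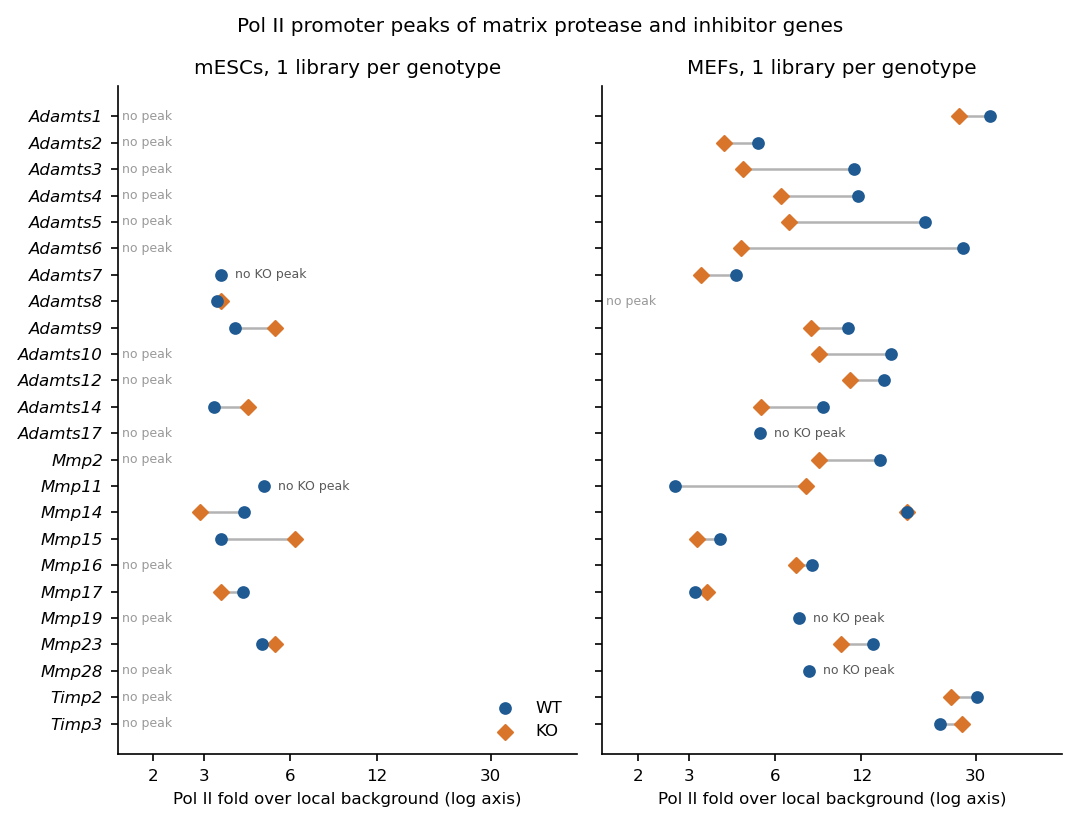
Pol II fold over the local background (log axis) at the promoter peak of each of the 24 genes with a peak in at least 1 library, in WT (circles) and KO (diamonds), for mESCs on the left and MEFs on the right, 1 library per genotype and no error bars. All 11 Adamts genes with a peak in both MEF libraries had the lower fold in KO, while mESC values stayed between 2.90 and 6.25.

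No member had a promoter peak in KO only, in mESCs (background 4.85%) or in MEFs (background 1.51%). The 2 members with the peak in WT mESCs only were Adamts7 and Mmp11 (background 8.04%), and the 3 with it in WT MEFs only were Adamts17, Mmp19 and Mmp28 (background 4.43%). Among genes with a WT peak, the KO lacked it at 3 of 23 members in MEFs, against 8.01% of all genes and 10 of 26 collagen genes. In mESCs it was lacking at 2 of 9 members, against 22.8% of all genes. Where both MEF libraries had a peak, the fold was lower in KO at 16 of 20 members, and the background was 67.5% of 10576 genes. In mESCs it was lower at 2 of 7, with a background of 47.8%. On the log2 scale the KO to WT ratio had a median of -0.39 over the 20 members in MEFs and of -0.22 over all 10576 genes. The folds are relative to the background of each library, so that the ratios compare values within the lists and are no absolute change.

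**Figure D2:**
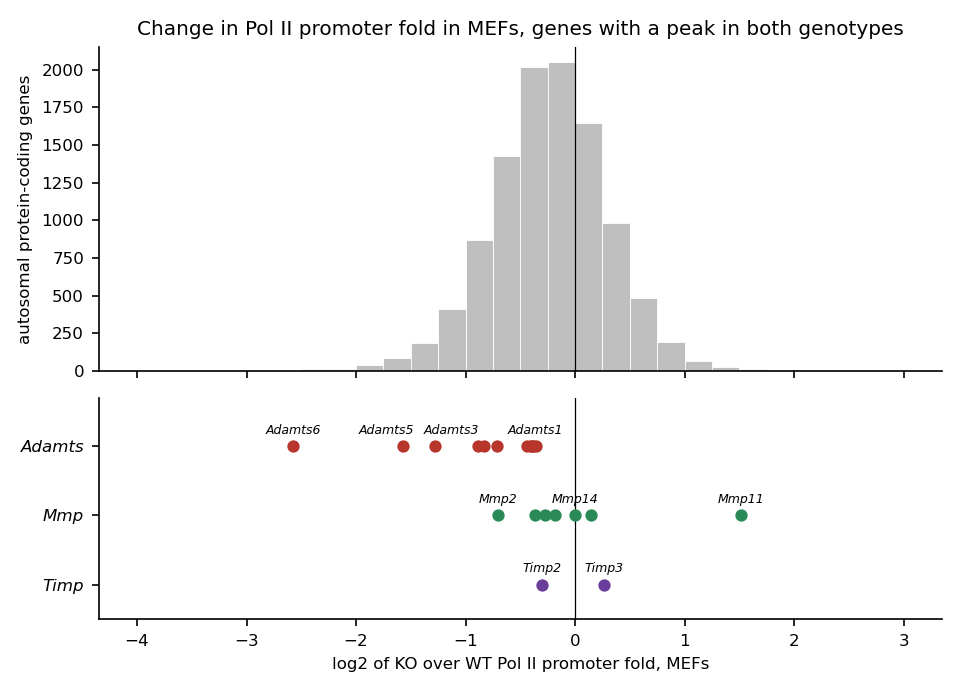
Number of autosomal protein-coding genes by log2 ratio of KO to WT Pol II promoter fold in MEFs, in steps of 0.25 (upper panel, 10576 genes with a peak in both), and the 20 protease and inhibitor genes on the same axis (lower panel, 1 point per gene, 1 library per genotype). The Adamts genes reach from -2.57 to -0.36, and Mmp11 stands at 1.52.

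Among the Adamts genes, the promoter peak was present in both MEF libraries at 11 of 19 and the fold was lower in KO at all 11 (background 67.5%), with a median log2 ratio of -0.71. Among the Mmp genes it was lower at 4 of the 7 with both peaks, with a median of -0.19, and of Timp2 and Timp3 it was lower at Timp2. The difference between these groups of genes was not tested. The count was also 11 of 11 when weak peaks were left out, when the lists were cut to equal numbers of peaks, when the TSS of any transcript was used and when the summit had to lie in the window. These settings kept the promoter peaks of the 11 genes and their deposited folds, so that they do not test the direction. With a narrower promoter, 100 bp before to 300 bp after the TSS, the count was 9 of 9, since the KO peaks of Adamts3 and Adamts5 begin 661 and 449 bp inside the gene. A fold at least 2-fold lower in KO was found at 3 of the 11 (Adamts3, Adamts5 and Adamts6), where the background was 7.27% of genes. At Adamts3 the summit lay 837 bp inside the gene in KO and 70 bp in WT, so that the folds were read at different places. At Adamts5 it lay 812 bp inside the gene in KO and 754 bp in WT, so that they were read at nearly the same place. The 6 fibroblast markers were also lower in KO MEFs in every case, for example Col1a2 with 19.4 in KO and 43.3 in WT, and the part of this in the values of the Adamts genes was not tested.

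The proteoglycanases of the family cut aggrecan and versican. Adamts1 (chr16:85793827-85803113, minus strand) had no Pol II peak in mESCs and a promoter fold of 33.7 in WT and 26.3 in KO MEFs, a log2 ratio of -0.36. Its neighbour Adamts5, whose TSS lies 98715 bp away (gene at chr16:85856173-85901828, minus strand), had no peak in mESCs, 20.0 in WT and 6.72 in KO MEFs, a log2 ratio of -1.57. The pair thus shared a locus and the restriction to MEFs, but the fold in KO was 2.98 times lower at Adamts5 and 1.28 times lower at Adamts1. Adamts4, at which peaks cannot be assigned by position alone, had 11.7 in WT and 6.30 in KO MEFs and none in mESCs. The peak of Adamts9 was present in all 4 libraries, with 3.85 and 5.32 in WT and KO mESCs and 10.8 and 7.99 in WT and KO MEFs. Adamts8 was the reverse of these genes, with 3.32 and 3.43 in WT and KO mESCs and no peak in MEFs. Of the other members of this group, Adamts15, 20110 bp from the TSS of Adamts8, and Adamts20 had no promoter peak. With the TSS of any protein-coding transcript, Adamts20 had a peak of 3.70 in WT MEFs and Adamts4 one of 2.67 in KO mESCs.

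The procollagen N-proteinases, which remove the amino-terminal propeptides of fibrillar procollagens, all had MEF peaks. Adamts2 had 5.21 in WT and 3.99 in KO MEFs and none in mESCs. Adamts3 had 11.3 in WT and 4.64 in KO MEFs, a log2 ratio of -1.28, and none in mESCs. Adamts14 had 3.25 and 4.27 in WT and KO mESCs and 8.79 and 5.36 in WT and KO MEFs. The ratio was thus below 1 at these 3 genes in MEFs and above 1 at Adamts14 in mESCs.

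Adamts6 (chr13:104287835-104496695, plus strand), a relative of the fibrillin-binding enzyme ADAMTS10, had the lowest KO to WT ratio of the family. Its fold was 27.2 in WT MEFs and 4.57 in KO MEFs, with no peak in mESCs, a log2 ratio of -2.57. Of all 10576 genes with both peaks, 0.0946% had a ratio this low or lower. Adamts10 had 15.2 in WT and 8.53 in KO MEFs (log2 ratio -0.84). Adamts17, another enzyme tied to fibrillin, had 5.31 in WT MEFs and no promoter peak elsewhere, and the nearest Pol II peak in KO MEFs was 149370 bp from its TSS. Adamts7 and Adamts12, which cut the cartilage protein COMP, had 4.37 and 14.4 in WT MEFs and 3.30 and 11.0 in KO MEFs. Adamts7 also had 3.44 in WT mESCs, where the nearest KO peak was 48020 bp away. Adamts13, which cuts von Willebrand factor, and Adamts16, Adamts18 and Adamts19 had no promoter peak.

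A promoter peak in all 4 Pol II libraries was found at 6 members (background 26.1%), namely Adamts9, Adamts14, Mmp23 and 3 of the 6 membrane-type Mmp genes, whose products act at the cell surface. Mmp14 (chr14:54431612-54445364, plus strand), the enzyme that activates pro-MMP2 together with TIMP2, had 4.15 and 2.90 in WT and KO mESCs and 17.2 and 17.3 in WT and KO MEFs. Mmp15 had 3.44 and 6.25 in mESCs and 3.86 and 3.19 in MEFs, and the GPI-anchored Mmp17 had 4.12 and 3.45 in mESCs and 3.15 and 3.48 in MEFs (WT and KO in each case). Mmp16 had a peak in MEFs only, with 8.10 in WT and 7.12 in KO. The MEF values of Mmp14 were thus nearly equal, and its summits in WT and KO mESCs lay 673 and 1123 bp upstream of the TSS. Its KO mESC peak (-log10 q 2.53) was lost with a -log10 q of at least 3 or with the summit in the window. Mmp14 was then not among the members with a peak in all 4 libraries. Mmp24 and Mmp25 had no promoter peak.

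The gelatinase Mmp2 (chr8:92827291-92853420, plus strand), which cuts denatured collagen and basement membrane collagen, had 13.9 in WT and 8.55 in KO MEFs and no peak in mESCs, a log2 ratio of -0.70. Mmp9, the other gelatinase, had no Pol II or H2Bub1 peak in any library. Mmp23, a short gene of 2730 bp whose product is held in the membrane by its amino-terminal end, had 4.80 and 5.29 in WT and KO mESCs and 13.1 and 10.2 in WT and KO MEFs. Mmp19 and Mmp28 had 7.26 and 7.88 in WT MEFs and none elsewhere, and the nearest Pol II peaks in KO MEFs lay 11068 and 9236 bp from their TSSs. Neither WT peak was weak, with a -log10 q of 29.0 at Mmp19 and 32.0 at Mmp28.

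The values of Mmp11, a stromelysin gene on chromosome 10 (chr10:75923222-75936496, minus strand), depended on the TSS used. At the TSS of the gene record it had 4.87 in WT mESCs but no peak in KO mESCs. In MEFs it had 2.68 in WT and 7.66 in KO, a log2 ratio of 1.52 in MEFs and the only member at least 2-fold higher in KO (background 1.28%). The MEF libraries had a higher peak 4046 bp (WT) and 4101 bp (KO) inside the gene, of fold 18.2 in WT and 15.0 in KO. These summits lay 680 and 735 bp from the TSS of the opposite-strand gene Chchd10. With the TSS of any protein-coding transcript, Mmp11 had 4.87 and 3.35 in WT and KO mESCs and 18.2 and 15.0 in WT and KO MEFs. The higher fold in KO MEFs and the missing peak in KO mESCs were therefore both absent with that definition, and reads of Mmp11 and Chchd10 cannot be told apart here.

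The inhibitors Timp2 and Timp3 had MEF promoter values among the highest of the family and no mESC promoter peak. Timp2 (chr11:118301069-118355740, minus strand) had 30.4 in WT and 24.7 in KO MEFs, and Timp3 (chr10:86300372-86349506, plus strand), which stays bound to the matrix and also inhibits ADAMTS enzymes, had 22.5 in WT and 27.0 in KO MEFs. Their log2 ratios were -0.30 and 0.26. Both stood above the median of -0.71 of the Adamts genes, but Timp2 was close to Adamts1 (-0.36) and below the median of all genes (-0.22). Of MMP inhibitor genes that are not members, X-linked Timp1 had 16.3 in WT and 7.08 in KO MEFs, and Reck had 11.4 and 4.99. Timp4 had neither mark in any library. Timp3 and Timp4 lie wholly within Syn3 and Syn2, so that peaks over them cannot be assigned by position alone.

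Pol II within the gene body differed in both directions between the MEF genotypes. A peak that reached the body beyond the promoter window was found at 24 members in WT MEFs (background 42.2%) and 17 in KO MEFs (background 33.9%). In mESCs it was found at 4 in WT (background 20.9%) and 5 in KO (background 13.6%). Promoter peaks that extend past the window are included here and in the peak numbers of this paragraph. Covered shares of Pol II are given for the part of the body outside the promoter window. Of the 16 members with body peaks in both MEF libraries, 6 had the larger covered share in KO (background 22.6%). Over Timp2 Pol II peaks covered 54.8% of this part in 33 peaks in WT and 93.0% in 9 peaks in KO. Over Timp3 they covered 56.1% in 32 peaks in WT and 88.8% in 12 peaks in KO. Over Adamts7 they covered 8.37% in WT and 17.9% in KO. Adamts5 went the other way, with 23.2% in 13 peaks in WT and 4.51% in 3 peaks in KO, as did Adamts10, with 26.1% and 5.35%. Adamts6 had 18 body peaks in WT and 0 in KO MEFs. Adamts1 and Mmp14 were covered for most of their length in both genotypes, at 100% and 97.1% in WT and 83.5% and 91.8% in KO.

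Some body peaks of the family were promoter peaks of the same gene that extended past the window. These were the only body peaks in WT MEFs of Adamts1, Adamts3, Adamts4, Adamts14 and Mmp23. Other body peaks lay at the start of another gene. The KO MEF peak in Adamts13, of fold 13.7, had its summit 86 bp from the TSS of Cacfd1. The peaks in Mmp24, of fold 17.0 in WT MEFs and 14.4 in KO MEFs, lay 260 and 243 bp from the TSS of BC029722. A further count took only summits inside the gene, outside its promoter window and more than 1000 bp from another TSS, a choice made after seeing the data. With it 3 (WT) and 4 (KO) members had a body peak in mESCs (backgrounds 17% and 10.6%), and 18 (WT) and 12 (KO) in MEFs (backgrounds 31.8% and 24.7%).

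**Figure D3:**
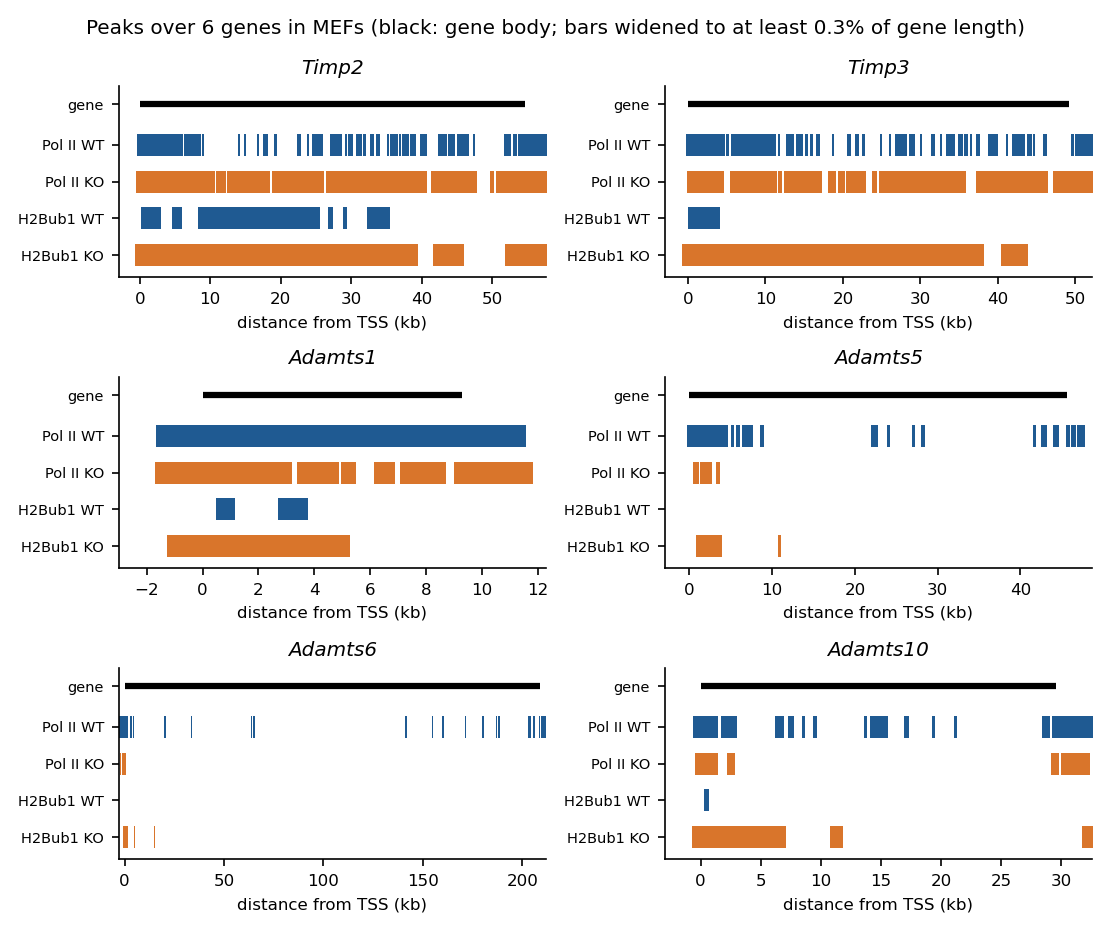
Pol II and H2Bub1 peaks over 6 genes in WT (blue) and KO (orange) MEFs, by distance from the TSS in kb, with the gene body in black and 1 library per row. Narrow bars were widened to at least 0.3% of the gene length. Timp2 and Timp3 are covered by both marks for most of their length in KO, whereas at Adamts5 and Adamts6 the KO H2Bub1 peaks end within 14.9 kb of the start.

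To ask whether loss of Atxn7l3 went with more H2Bub1 over these genes, the share of each gene body covered by H2Bub1 peaks was compared. In MEFs nearly every marked member had the larger share in KO, and in mESCs 5 members had the smaller one. H2Bub1 was found at 10 of 44 members in WT MEFs (22.7%, background 31.7%) and 19 in KO MEFs (43.2%, background 54.3%). It was found at 16 in WT mESCs (36.4%, background 55.7%) and 17 in KO mESCs (38.6%, background 62.1%). With a -log10 q of at least 3 the counts were lower, at 2 in WT mESCs (background 22.2%), 6 in KO mESCs (background 44.9%), 2 in WT MEFs (background 5.76%) and 14 in KO MEFs (background 49.4%), so that the share of all genes was lower as well. H2Bub1 in KO but not WT was found at 10 members in MEFs (background 22.9%) and at 3, Adamts4, Adamts15 and Timp3, in mESCs (background 9.53%). The covered share was higher in KO MEFs at 19 members (background 53.8%) and lower at 1 (background 0.529%). Of the members marked in either MEF genotype, 19 of 20 were higher in KO, where 98.7% of all such genes were. In mESCs it was higher in KO at 13 (background 54.2%) and lower at 5 (background 9.83%). Of those marked in either mESC genotype, 13 of 19 were higher in KO (68.4%, exact interval 43.4 to 87.4), where 83.1% of all such genes were.

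**Figure D4:**
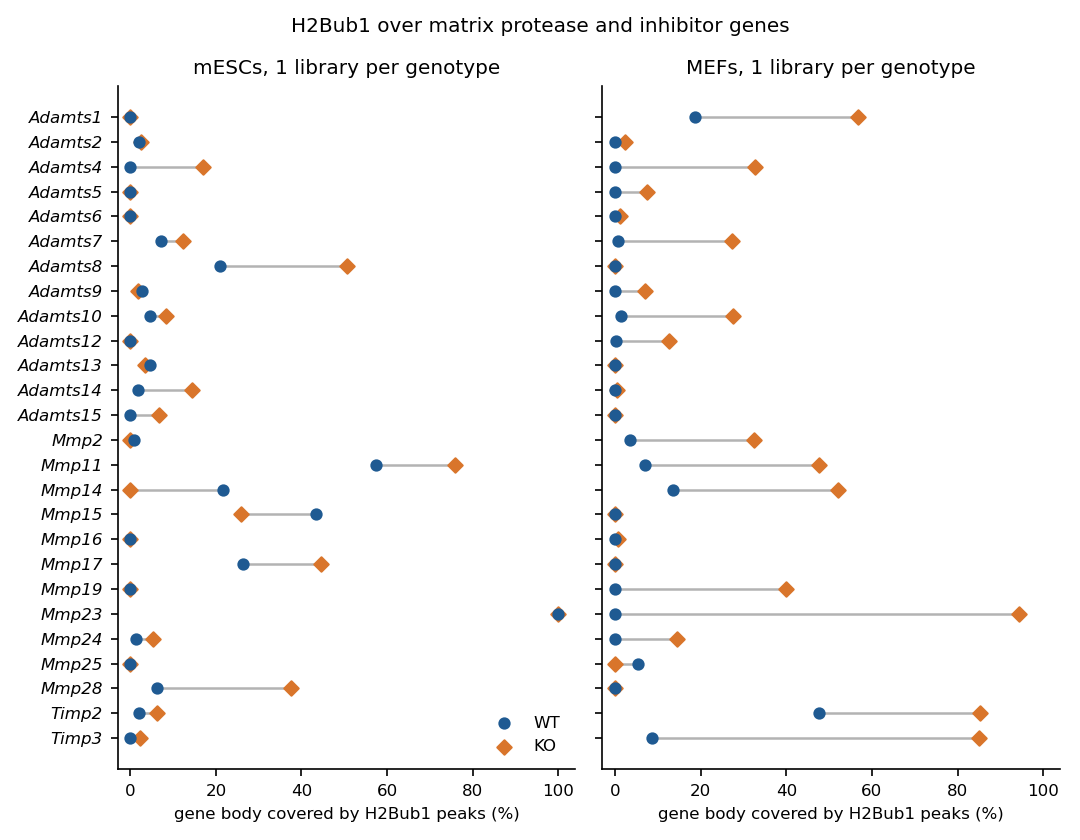
Percent of the gene body covered by H2Bub1 peaks in WT (circles) and KO (diamonds) for the 26 genes with H2Bub1 in at least 1 library, mESCs on the left and MEFs on the right, 1 library per genotype and no error bars. In MEFs 19 of the genes lie further right in KO, and in mESCs Mmp14 and Mmp15 lie further left.

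In MEFs Timp2 and Timp3 had broad H2Bub1, while Timp4 had none. Over Timp3 the peaks covered 0% (WT) and 2.27% (KO) in mESCs, and 8.51% (WT) and 84.9% (KO) in MEFs. Over Timp2 they covered 2.04% and 6.30% in mESCs, and 47.7% and 85.4% in MEFs. The widest KO MEF peak over Timp3 reached from 0.719 kb before to 38.2 kb after the TSS, and that over Timp2 from 0.718 kb before to 39.4 kb after it. In WT MEFs the only H2Bub1 peak of Timp3 spanned the first 4.20 kb. For the part of Timp2 that overlaps no other gene, the shares were 35.7% in WT and 82.0% in KO MEFs.

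Among the membrane-type enzymes and other Mmp genes, Mmp23 had 100% in both mESC libraries, and in MEFs 0% in WT and 94.5% in KO. In mESCs Mmp14 had 21.7% in WT and 0% in KO, and in MEFs 13.5% and 52.1%. In mESCs Mmp2 had 0.892% in WT and 0% in KO, and in MEFs 3.51% and 32.5%. Both genes thus had H2Bub1 in WT but not KO mESCs (background 3.13%) and more of it in KO than WT MEFs. Mmp11 had 57.4% (WT) and 75.8% (KO) in mESCs, and 6.93% (WT) and 47.6% (KO) in MEFs, and the widest KO peaks reached in from beyond the end of the gene. Mmp15 had 43.4% and 25.9% in WT and KO mESCs and Mmp17 26.4% and 44.7%, with 0% in both MEF libraries at both genes. In mESCs Mmp28 had 6.24% in WT and 37.7% in KO, with none in MEFs. Mmp19 had 39.9% in KO MEFs only, although the Pol II promoter peak was in WT MEFs only. Without a promoter peak, Mmp24 had 1.23% (WT) and 5.41% (KO) in mESCs, and 0% (WT) and 14.4% (KO) in MEFs. The KO MEF value came from 1 peak that began 36.8 kb after the TSS and ran past the end of the gene, across the start of BC029722. Mmp16, with Pol II at the promoter in both MEF genotypes, had 0.571% in KO MEFs only. Mmp25, which had no Pol II promoter peak, was the only member with H2Bub1 in WT MEFs and not in KO MEFs, at 5.29% (background 0.293%).

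Among the Adamts genes, Adamts1 had 18.6% in WT and 56.6% in KO MEFs and none in mESCs. Adamts10 had 4.62% (WT) and 8.34% (KO) in mESCs, and 1.44% (WT) and 27.6% (KO) in MEFs. Adamts7 had 7.08% and 12.4% in mESCs, and 0.651% and 27.4% in MEFs. Adamts7 overlaps the opposite-strand gene Tbc1d2b, and outside that overlap its MEF values were 0% in WT and 31.7% in KO. At these 3 genes the KO value in MEFs was thus the highest of the 4. Adamts12 had 0.204% in WT and 12.6% in KO MEFs. Adamts4 had 17.0% in KO mESCs and 32.7% in KO MEFs and 0% in both WT libraries. Adamts5, Adamts6 and Adamts9 had 7.45%, 1.11% and 6.96% in KO MEFs and 0% in WT MEFs, so that in MEFs H2Bub1 at these 3 genes was found only in KO while promoter Pol II was lower there. In mESCs Adamts9 had 2.80% in WT and 1.72% in KO. The procollagen N-proteinases Adamts2 and Adamts14 had 2.30% and 0.414% in KO MEFs and 0% in WT MEFs, and 2.39% and 14.3% in KO mESCs against 2.05% and 1.78% in WT mESCs. Adamts3 and Adamts17 had no H2Bub1 in any library despite their Pol II promoter peaks in MEFs. Adamts8 had 20.9% in WT and 50.6% in KO mESCs and none in MEFs, and its neighbour Adamts15 had 6.76% in KO mESCs only. In mESCs Adamts13 had 4.48% in WT and 3.53% in KO.

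In KO MEFs H2Bub1 was denser in the first 5000 bp than in the rest of the long Adamts genes, and over Timp2 and Timp3 it ran through most of the gene. It covered all of the first 5000 bp at Adamts1, Adamts7, Adamts9, Adamts10, Mmp2, Mmp14, Timp2 and Timp3 and 99.1% of them at Adamts12. Over the 9 Adamts genes longer than 10 kb with H2Bub1 in KO MEFs, the median covered share was 66.9% in the first 5000 bp and 1.19% in the rest. The rest is far longer, and summed over the 9 genes it held 51.5 kb of H2Bub1 against 31.0 kb in the first part. At Adamts12 the peaks covered 4.96 kb in the first part and 31.0 kb in the rest, at Adamts7 and Adamts9 5.00 kb and 7.33 or 6.88 kb, while at Adamts5 they covered 3.09 and 0.308 kb. In the rest of Timp2 and Timp3 it was 83.9% and 83.2%. The Adamts genes are long, with a median of 114.0 kb against 17.6 kb for all genes, so that a share of the whole body understates a peak of given width at them.

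Pol II at the promoter and H2Bub1 in the body were found together more often in KO than in WT MEFs. Of the members with a promoter peak, 9 of 23 had H2Bub1 in WT MEFs (39.1%, background 53.4%) and 17 of 20 in KO MEFs (85%, background 93.3%). The 3 exceptions in KO MEFs were Adamts3, Mmp15 and Mmp17. In WT mESCs it was 9 of 9 (background 91.9%) and in KO mESCs 6 of 7 (background 97.8%), the exception being Mmp14. Across the 20 members with a KO MEF promoter peak, Spearman's rho between promoter fold and H2Bub1 share was 0.79, against 0.41 over 10890 genes. In WT MEFs it was 0.46 over 23 members and 0.45 over 11497 genes. In mESCs it was 0.70 over 9 members in WT and 0.11 over 7 in KO, against 0.18 and 0.07 over all genes with a promoter peak. These correlations are across genes of single libraries, which share depth and background, and are given as a description.

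Neither a promoter peak nor H2Bub1 was found in any library at 16 of the 44 genes (36.4%, background 28.7%), counting Adamts20, which has a WT MEF peak at its transcript TSS only. They were Adamts16, Adamts18, Adamts19, Adamts20, Mmp1b, Mmp3, Mmp7, Mmp8, Mmp9, Mmp10, Mmp12, Mmp13, Mmp20, Mmp21, Mmp27 and Timp4. Adamts16, Adamts20 and Mmp21 had weak Pol II peaks in their bodies in WT MEFs, of fold 2.87 to 3.74, and Adamts20 had a body peak of 3.35 in KO mESCs. The other 13 had no peak of either mark in the gene or promoter.

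Of these, 9 form the run on chromosome 9 that includes the collagenases Mmp1b, Mmp8 and Mmp13, the stromelysins Mmp3 and Mmp10, the macrophage elastase Mmp12, the matrilysin Mmp7 and the enamel protease Mmp20. The run spans 427.1 kb (chr9:7272514-7699585). It held no H2Bub1 peak in any of the 4 H2Bub1 libraries and a single Pol II peak, in WT MEFs, of fold 6.48 and 671 bp in width. The middle of this peak lay 13360 bp from Mmp27, its nearest member. Pol II peaks were found at a distance of 60109 to 87886 bp before the run and of 63861 to 64304 bp after it in the 4 Pol II libraries.

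**Figure D5:**
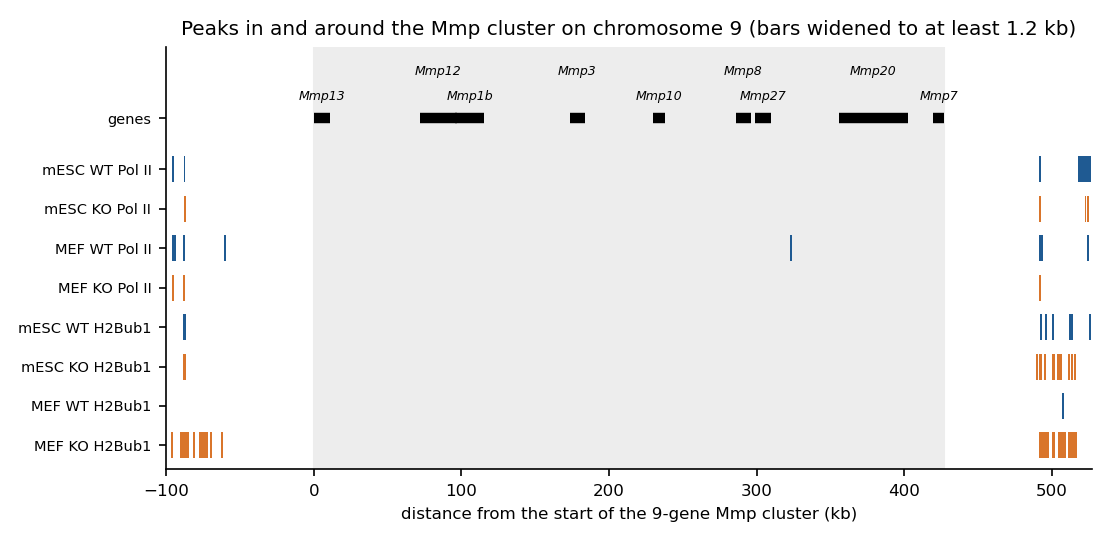
Peaks of the 8 libraries (rows, WT in blue and KO in orange) in and around the 9 Mmp genes of chromosome 9 (black bars), by distance in kb from the start of the run, shaded over its 427.1 kb. The only peak within the shaded run is the Pol II peak of WT MEFs, while all 4 Pol II libraries have peaks on both sides.

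Other genes of matrix proteolysis were taken from a list of 30 that holds further inhibitors, ADAM and ADAMTS-like genes, plasminogen activators and proteoglycan substrates. In MEFs 22 of the 30 had promoter Pol II in WT (background 55.3%) and 20 in KO (background 52.3%), and 14 of the 20 with both had the lower fold in KO, near the background of 67.5%. H2Bub1 was found in MEFs at 11 in WT and 20 in KO (backgrounds 31.7% and 54.3%), and all 20 had the higher share in KO, as had 98.7% of all marked genes. The X-linked inhibitor gene Timp1 had 16.3 in WT and 7.08 in KO MEFs, and Reck, a membrane-bound inhibitor of MMPs, had 11.4 and 4.99. The plasminogen activator Plau had 22.6 in WT and 19.0 in KO MEFs. Vcan, the proteoglycan versican, which ADAMTS enzymes cut, had 18.4 in WT and 2.16 in KO MEFs. A promoter peak in mESCs was found at 6 of the 30 in WT (background 35.3%) and 7 in KO (background 32.1%).

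Markers of other cell types differed between the MEF libraries. Of 8 epithelial and mesothelial markers, 0 had promoter Pol II in WT MEFs, while Upk1b, Upk3b and Msln had one in KO MEFs (fold 38.6, 18.1 and 10.2) and Epcam, Cdh1, Krt8, Krt18 and Krt19 had none there. Of 4 endothelial markers, Kdr had a peak in WT MEFs (2.61) and Pecam1 in KO MEFs (4.31), and Cdh5 and Tek had none. Of 4 macrophage markers, Csf1r (3.53) and Adgre1 (5.40) had a peak in KO MEFs only, Cd68 had one in every library and Ptprc had none, and none of the 4 skeletal muscle markers had one in MEFs. A different mix of cells in the KO culture and a different amount of Pol II per cell cannot be told apart in these libraries, and the part of such a mix in the values of the protease genes was not tested.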

How the data were processed

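Peak lists of 8 ChIP-seq libraries were analysed, 4 for Pol II and 4 for H2Bub1. The 8 inputs and serine 2 phosphorylated Pol II libraries were not analysed here. Per the submitters' processing notes, the authors used Bowtie 1.0.0, MACS2 2.1.1.20160309 and mm10, and called narrow peaks for Pol II and broad peaks for H2Bub1 in each library. The calling control and thresholds are not given in the sources used here. The fold that the authors deposited is a ratio of read pileup to local background, read at the summit of a narrow peak and as the mean of a broad peak, and the deposited significance values are the -log10 p-value and -log10 q-value of each peak. Narrow lists also give, per the file headers, the summit as an offset from the peak start, used here for position. The read depth is unknown, so that no interval rests on reads; deeper libraries yield longer lists.

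Positions were set against GENCODE M21 (GRCm38). A promoter call needed 1 bp of peak within 1000 bp of the gene record's TSS and took the highest fold. Covered shares are bases under peaks, of the whole gene body for H2Bub1 and of the body outside the promoter window for Pol II. Family counts have exact Clopper-Pearson 95% intervals and stand beside the same count over all 20807 autosomal protein-coding genes. Promoters came from RefSeq (GRCm38.p6). Genes were named by a rule: full values for members with a promoter peak, or with H2Bub1 over at least 10% of the body without such a peak, and names for the rest. The members and lists were chosen with earlier results of these data known. Results were recomputed with only peaks of -log10 q 3 or more, lists of equal length in WT and KO, members that overlap no other gene, other promoter definitions, summits in place of overlap, a call at 10% of the body, peaks less than 1000 bp apart joined and a difference of 10 percentage points. The functions were tested on simulated peaks. Computing used Python 3.11.15, numpy 2.4.6, pandas 2.3.3, scipy 1.17.1 and matplotlib 3.10.9.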

Additional observations from a re-analysis of the deposited data

Results flagged for a closer look

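Some members had KO to WT differences of opposite sign in mESCs and MEFs, with 1 library per group, so that none of these differences was tested. The difference (MEFs minus mESCs) of the log2 ratio of KO to WT Pol II promoter fold was -0.90 at Adamts9, -1.10 at Adamts14, -1.13 at Mmp15 and -0.50 at Mmp23, where the ratio was above 1 in mESCs and below 1 in MEFs. It was 0.40 at Mmp17, where the ratio was below 1 in mESCs and above 1 in MEFs. It was 0.52 at Mmp14, but there the MEF folds were nearly equal (17.2 in WT and 17.3 in KO), and the value is almost wholly that of mESCs. The KO mESC peak of Mmp14 was weak (-log10 q 2.53), with its summit 1123 bp upstream of the TSS, against 673 bp in WT. The difference (MEFs minus mESCs) of the change in H2Bub1 covered share was 8.03 percentage points at Adamts9, 29.9 at Mmp2 and 60.3 at Mmp14, where the share was lower in KO in mESCs and higher in KO in MEFs.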

How the results depend on the processing

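No paired analysis was possible because each group held 1 library. Of 120 values recomputed for 24 counts, 81 stayed within 1.5 times the reported count and 39 did not. In what follows counts are members, given without the share over all genes, so that they show only how the family's own counts moved. With a -log10 q of at least 3, H2Bub1 was found in mESCs at 2 (WT) and 6 (KO), with 1 restricted to WT and 5 to KO, and in MEFs at 2 (WT), with 0 in WT only. The share was then higher in KO at 6 and lower at 1 in mESCs and lower at 0 in MEFs. With equal numbers of peaks, 2 had a Pol II body peak in WT mESCs, and promoter peaks of mESCs were restricted to WT at 1 and to KO at 1, and those of MEFs to KO at 1. Among the 32 members that overlap no other gene, H2Bub1 was found in mESCs at 10 (WT) and 9 (KO) and in MEFs at 6 (WT) and 11 (KO), with 1 (mESCs) and 6 (MEFs) in KO only, and the share was higher in KO at 6 in mESCs and 11 in MEFs. Of these 32, 15 had a promoter peak in WT MEFs, and the peak was restricted to WT at 0 in mESCs and at 1 in MEFs. A Pol II body peak was found at 3 in KO mESCs and in MEFs at 15 (WT) and 10 (KO). This setting removes members, so that its counts are lower by construction. With the narrow promoter, the peak in MEFs was restricted to WT at 5 and to KO at 1, and with any TSS that in mESCs to WT at 1 and to KO at 1. With at least 10% of the body, H2Bub1 was found in mESCs at 6 (WT) and 9 (KO) and in MEFs at 3 (WT), with 1 (mESCs) and 0 (MEFs) in WT only. With a difference of at least 10 percentage points, the share was higher in KO at 6 and lower at 2 in mESCs and lower at 0 in MEFs. Apart from the removal of members, the cause was not tested. Unknown read depth limits every count.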
